A study of Mus musculus with 12 samples.

Results

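The genes described here are 7 DNA repair genes grouped as transcriptional targets of p53: Xpc, Ddb2, Polk, Polh, Rrm2b, Ercc5 and Gadd45a. Whether p53 acts directly on each of them in mouse cells was not tested. They were taken by symbol from a table of RNA-seq read counts that lists 24108 genes, and all 7 passed the filter on low counts that left 13745 genes for testing. The libraries came from neural stem/progenitor cells (NPCs) of the subventricular zone (SVZ) of C57BL/6 mice at postnatal days 9 to 12. There were 12 libraries in 4 groups of 3, which crossed the genotype of the NPCs (p53+/+ or p53-/-) with the culture (alone or in co-culture). The p53-/- NPCs were p53LoxP/LoxP cells in which an adenovirus carrying Cre under the CMV promoter (Ad-CMV-iCre) had removed the gene in culture, and an adenovirus without Cre (Ad-CMV-Null) is listed as the control virus. The labels call the p53+/+ cells wild type, and the sources used here do not say whether these were p53+/+ NPCs or p53LoxP/LoxP NPCs given the control virus. Cells labelled alone grew on laminin, and cells labelled co-culture grew for 48 h in contact with primary brain microvascular endothelial cells (bmvECs) of wild-type C57BL/6J mice, from which the NPCs were then lifted by selective trypsinization. The labels name no DNA-damaging agent for any library. The same 3 experiment numbers, 17_9, 25_9 and 1_10, occur in every group, and values are given below in that order.

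p53 is a transcription factor that is stabilised after DNA damage and switches on genes for cell-cycle arrest, cell death and repair. The 7 genes act in different steps of repair. Xpc and Ddb2 encode the damage sensors of nucleotide excision repair, the pathway that cuts out ultraviolet photoproducts and other bulky lesions, and Ercc5 encodes XPG, the nuclease that cuts on the 3′ side of the lesion. Polk and Polh encode polymerases kappa and eta, which copy past lesions that stop the replicative polymerases. Rrm2b encodes the p53-inducible small subunit of ribonucleotide reductase, which makes deoxynucleotides for repair, and Gadd45a encodes a small stress-induced protein that binds PCNA and Cdk1.

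Sequence upstream of the annotated start was available for 4 of the 7 genes (RefSeq, build GRCm38.p6, 250 bases before the start, coordinates on that build and not on the mm9 build to which the reads were aligned). Windows of Ercc5 and Polk are shown because these genes had less mRNA without p53, and that of Gadd45a because it holds a p53 motif. Capitals mark exact matches to the p53 consensus decamer, the 10-base unit that a p53 dimer binds, which reads the same on both strands. The windows are chr1:44147494-44147743 on the plus strand for Ercc5, chr13:96542580-96542829 on the minus strand for Polk and chr6:67037408-67037657 on the minus strand for Gadd45a, each printed 5′ to 3′ on the strand of the gene.
Ercc5: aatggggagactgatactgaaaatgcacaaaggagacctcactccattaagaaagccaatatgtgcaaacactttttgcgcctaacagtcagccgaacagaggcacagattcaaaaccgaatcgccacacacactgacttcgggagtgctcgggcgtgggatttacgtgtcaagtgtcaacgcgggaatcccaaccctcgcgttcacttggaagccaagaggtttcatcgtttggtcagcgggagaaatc
Polk: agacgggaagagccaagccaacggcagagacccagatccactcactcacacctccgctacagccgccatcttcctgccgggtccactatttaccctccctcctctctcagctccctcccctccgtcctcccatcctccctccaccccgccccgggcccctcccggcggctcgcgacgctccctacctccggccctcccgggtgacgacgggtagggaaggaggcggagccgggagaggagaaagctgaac
Gadd45a: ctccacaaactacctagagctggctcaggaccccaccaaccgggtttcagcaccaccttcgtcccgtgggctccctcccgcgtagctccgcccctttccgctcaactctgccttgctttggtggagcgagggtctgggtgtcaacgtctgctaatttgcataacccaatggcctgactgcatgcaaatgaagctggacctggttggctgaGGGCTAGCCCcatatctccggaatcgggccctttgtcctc
The window of Gadd45a held 1 exact decamer, which began 40 bases before the start. This decamer was also the second unit of a pair with 2 mismatches in all and a spacer of 11 bases, which began 61 bases before the start. The windows of Ercc5 and Polk shown here held no exact decamer, and neither did the window of Polh. A downstream start of Polk had 1 exact decamer that began 231 bases before it. Of the 32851 windows of this length in the table, 7.13% held an exact decamer and 3.34% a pair with at most 2 mismatches. A match describes the letters of a window and says nothing about binding.

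Total counts ranged from 16509710 to 22245224 per library. The targeted gene itself followed the labels: Trp53 was at 80.3, 96.6 and 108.6 CPM (counts per 1000000 counts of the library, scaled by TMM factors) in p53+/+ NPCs alone and at 11.7, 14.7 and 17.4 CPM in p53-/- NPCs alone, and at 61.8 to 78.8 CPM against 13.7 to 19.3 CPM in co-culture. Cdkn1a, the cell-cycle inhibitor p21 and a classical p53 target, fell by 4.74 ± 0.51 (SE) on the log2 scale alone and by 4.44 ± 0.50 in co-culture. All 12 markers of neural progenitors were detected in every group, with summed levels of 10278 to 14709 CPM. Endothelial markers, 20 genes, summed to 35.2 to 40.9 CPM in p53+/+ NPCs alone and 37.3 to 48.4 CPM in p53-/- NPCs alone, against 168 to 264 CPM and 159 to 198 CPM in the respective co-cultures. The defining genes Tie1 and Sox17 were at 0 in all p53+/+ libraries alone.

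Without p53, Polk and Ercc5 were the members that fell, and they fell both in NPCs alone and in co-culture. Polk was 3.22-fold lower alone and 2.28-fold lower in co-culture, and Ercc5 was 2.01-fold and 1.63-fold lower. None of the other 5 genes was lower past the threshold (adjusted p under 0.05, edgeR quasi-likelihood test) in either culture. Thus 2 of 7 genes were called lower and 0 higher in NPCs alone, where 4.27% of all tested genes were called lower and 2.02% higher. In co-culture the counts were again 2 lower and 0 higher, against 4.93% and 3.24% of all tested genes. With library size alone as the scaling, 624 genes were called higher and 555 lower in co-culture, against 445 and 677 with TMM factors, while the member counts stayed at 0 and 2. At an unadjusted p under 0.05 there were 2 members alone, both lower, against 23.8% of all tested genes, and 4 in co-culture, of which Polh and Gadd45a were higher, against 25.3%. DESeq2 without a block gave the same member counts in both. With the experiment number as a block, edgeR called 1282 of all tested genes lower and 996 higher alone. In co-culture that fit called 1499 lower and 1373 higher. Polk and Ercc5 stayed the members called lower in both cultures, and Polh was called higher in co-culture. The labels do not say whether the 3 libraries of a group came from separate animals, so the p-values measure the spread between these libraries.

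Markers of some other cell types moved with genotype as well. Of 8 tested mural and fibroblast markers, 3 rose without p53 in NPCs alone and 1 in co-culture, and 0 fell. In NPCs alone, sums over the 12 listed genes were 119 to 716 CPM (median 143) with p53 and 162 to 1278 CPM (median 228) without it. Acta2 alone ranged from 44.4 to 432 CPM and from 33.1 to 765 CPM between the libraries of these groups. In co-culture the sums were 93.6 to 106 CPM with p53 and 132 to 178 CPM without it. Pdgfra, a receptor gene that oligodendrocyte precursors also express, was 2.82-fold higher without p53 (adjusted p = 0.00125) alone and 4.12-fold higher (adjusted p = 0.000217) in co-culture. Neuroblast and neuron markers, 7 of 10 tested, had 2 higher alone and 1 in co-culture and 0 lower, led by Dcx, a microtubule gene of migrating neuroblasts, at log2 fold changes of 1.91 ± 0.52 and 3.03 ± 0.49, which had at most 35 counts in any library. Their sums overlapped between genotypes, at 521 to 585 CPM and 517 to 673 CPM alone and 477 to 545 CPM and 525 to 701 CPM in co-culture, and Dlx5 was at 0 in every p53+/+ library. Oligodendrocyte markers, 7 of 10 tested, had 0 calls alone and 1 in each direction in co-culture, and neither neural progenitor (12 tested) nor endothelial markers (20 tested) had a call with p53 loss. The part of these markers in the changes of Polk and Ercc5 was not tested.

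Polk encodes polymerase kappa, which inserts bases opposite bulky adducts on guanine. In p53+/+ NPCs alone its level was 36.0, 21.8 and 25.2 CPM, and in p53-/- NPCs alone 7.07, 7.10 and 11.6 CPM. In co-culture it was 27.2, 19.1 and 24.3 CPM with p53 and 11.7, 6.93 and 12.3 CPM without. Every p53-/- library was below every p53+/+ library, so the groups did not overlap in either culture. Such a lack of overlap, in either direction, held for 2 of 7 members in each culture. Among all tested genes it held for 27.3% alone and 31.3% in co-culture. The log2 fold change was -1.69 ± 0.27 (SE; adjusted p = 0.00297) alone and, in co-culture, -1.19 ± 0.27 (adjusted p = 0.0181), and 1.35% and 2.20% of all tested genes had a lower value. Contact with bmvECs itself moved Polk by -0.23 (95% interval -0.80 to 0.33) in p53+/+ NPCs and by 0.27 (-0.32 to 0.86) in p53-/- NPCs. GENCODE M21 places Gm17622 on the opposite strand, overlapping Polk. The call in NPCs alone was lost without experiment 17_9, when the log2 fold change was -1.35 (adjusted p = 0.0506). In co-culture it was lost without p53+/+ library 17_9 (adjusted p = 0.0759), without p53-/- library 25_9 (adjusted p = 0.0703) and without any one of the experiments (adjusted p from 0.0535 to 0.194).

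Ercc5 was the most abundant member per length of exon in p53+/+ NPCs alone, at 10.8 ± 1.20 CPM per kb (SD, n = 3), whereas in p53-/- NPCs alone it was at 5.37 ± 0.54 CPM per kb, below Polh at 7.30 ± 1.61 and Gadd45a at 6.12 ± 0.72. Its levels there were 66.7, 55.2 and 68.1 CPM, against 28.4, 31.2 and 34.8 CPM in p53-/- NPCs alone. In co-culture they were 55.3, 48.7 and 56.5 CPM with p53 and 32.8, 30.7 and 34.9 CPM without. As with Polk, the highest p53-/- library lay below the lowest p53+/+ library in both cultures. The log2 fold change was -1.01 ± 0.12 (adjusted p = 0.000388) alone and, in co-culture, -0.71 ± 0.12 (adjusted p = 0.00533). Without experiment 25_9 the change in co-culture was -0.72 and no longer passed (adjusted p = 0.160), while the change alone passed without each library and each experiment. Co-culture moved Ercc5 by -0.24 (-0.51 to 0.02) in p53+/+ NPCs and by 0.06 (-0.21 to 0.33) in p53-/- NPCs.

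Polk and Ercc5 also had the most alike profiles among the 7 genes. Across the 12 libraries, which share groups and experiments, Pearson's r of their log2 CPM was 0.961, and among genes whose mean log2 CPM reached 2 none was more like Polk. The next were Trp53inp1, itself a p53 target, with r = 0.960, and 9230114K14Rik with r = 0.959. Ercc5 was most like Zmat3 (r = 0.985), Trp53inp1 (r = 0.978) and Lrrc28 (r = 0.977). Zmat3 encodes an RNA-binding protein and is a known p53 target. These values are descriptions across 12 libraries and carry no test. They include the differences between group means, so they are not independent of the calls of Polk and Ercc5.

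**Figure D1:**
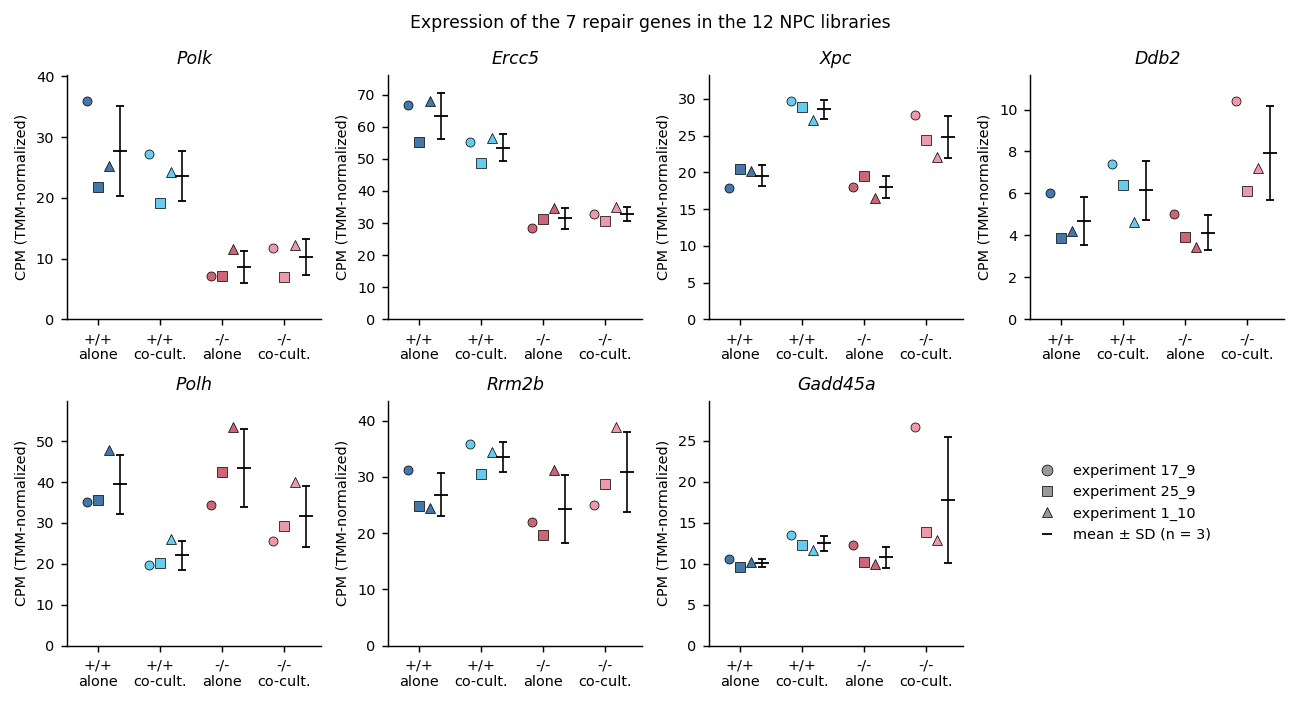
TMM-normalized CPM of the 7 genes (y axis, from 0) in the 4 groups (x axis), with 1 symbol per library and experiment and the mean ± SD of 3 libraries as a bar. Polk and Ercc5 separate the p53+/+ from the p53-/- libraries in both cultures, Xpc separates co-culture from NPCs alone, and 1 p53-/- co-culture library stands above the others for Gadd45a at 26.7 CPM.

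Xpc, the sensor that finds helix-distorting lesions across the genome, was higher in co-culture in both genotypes. In p53+/+ NPCs it was at 17.9, 20.5 and 20.2 CPM alone and at 29.7, 28.9 and 27.2 CPM in co-culture. The p53-/- libraries held 18.1, 19.5 and 16.5 CPM alone and 27.8, 24.4 and 22.1 CPM in co-culture. All 6 co-culture libraries were above all 6 libraries of NPCs alone, and the 2 genotypes overlapped within each culture. The log2 fold change with co-culture was 0.55 ± 0.13 (adjusted p = 0.00497) in p53+/+ NPCs, or 1.46-fold, and 0.46 ± 0.13 (adjusted p = 0.0151) in p53-/- NPCs. The difference between genotypes was -0.12 (95% interval -0.40 to 0.16) alone and -0.21 (-0.48 to 0.07) in co-culture. The p53+/+ call was lost without experiment 25_9 (adjusted p = 0.0835). The p53-/- call was lost without co-culture library 17_9 (adjusted p = 0.0904), without p53-/- alone library 1_10 (0.0667), without any one of the experiments (0.0507 to 0.109) and when only those 2 groups were fitted (0.0521).

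Ddb2 encodes the subunit of the UV-DDB complex that recognises ultraviolet photoproducts in chromatin. It had the fewest counts of the 7 genes, 62 to 208 per library, and the lowest level per length in p53+/+ NPCs alone, 1.72 ± 0.42 CPM per kb. Its levels were 6.00, 3.87 and 4.22 CPM in p53+/+ NPCs alone and 5.04, 3.92 and 3.44 CPM in p53-/- NPCs alone. In co-culture they were 7.41, 6.42 and 4.64 CPM with p53 and 10.4, 6.13 and 7.21 CPM without. The p53-/- libraries in co-culture were all above those alone, whereas the p53+/+ libraries overlapped. Ddb2 rose with co-culture in p53-/- NPCs by 0.94 ± 0.27 on the log2 scale (adjusted p = 0.0163), or 1.91-fold, and its value in p53+/+ NPCs was 0.39 (95% interval -0.18 to 0.97). The difference between these 2 responses was 0.54 (-0.27 to 1.36), and it was not called (adjusted p = 0.807). The rise in p53-/- NPCs was not called without co-culture library 17_9 (0.68, adjusted p = 0.0906), without p53-/- alone library 1_10 (adjusted p = 0.0561), without experiment 25_9 (0.0833) or without experiment 1_10 (0.0621). In the GENCODE M21 annotation Ddb2 overlaps Acp2, a lysosomal phosphatase gene on the opposite strand, which had 1259 to 2339 counts per library and was higher in co-culture by 0.48 ± 0.11 in p53+/+ and 0.47 ± 0.11 in p53-/- NPCs. The strand setting of the counting is not given in the sources used here, so the 2 genes' reads may not be fully separated.

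Polh, the gene for polymerase eta, which copies accurately past ultraviolet-induced thymine dimers, was the member that fell with co-culture. In p53+/+ NPCs it was at 35.0, 35.7 and 47.8 CPM alone and at 19.8, 20.3 and 26.1 CPM in co-culture, with no overlap. In p53-/- NPCs it was at 34.3, 42.5 and 53.4 CPM alone and at 25.7, 29.2 and 40.0 CPM in co-culture, where the groups overlapped. In each of the 4 groups the highest value came from experiment 1_10. The log2 fold change with co-culture was -0.84 ± 0.21 (adjusted p = 0.00671) in p53+/+ NPCs, or 1.79-fold, and -0.46 ± 0.21 (adjusted p = 0.0994) in p53-/- NPCs. Without experiment 25_9 the p53+/+ call was lost (adjusted p = 0.0915), and the p53-/- change was called without p53-/- alone library 17_9 (adjusted p = 0.0491) or p53-/- co-culture library 1_10 (0.0289).

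Polh was also the one member whose calls depended on the pairing by experiment number. With the number as a block, the p53-/- change with co-culture was -0.46 ± 0.10 and passed (adjusted p = 0.00241, edgeR; 0.000402, DESeq2). The block also turned the effect of p53 loss in co-culture, 0.52 ± 0.21 (adjusted p = 0.141) without it, into a call of higher expression at 0.51 ± 0.10 (adjusted p = 0.00439). In that blocked fit 1373 of the 13745 tested genes were called higher. In NPCs alone the difference between genotypes was 0.14 (95% interval -0.31 to 0.58). None of the fits that were run called Polh lower without p53.

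Rrm2b passed in none of the comparisons. Its levels were 31.3, 24.9 and 24.4 CPM in p53+/+ NPCs alone, 35.8, 30.5 and 34.4 CPM in p53+/+ co-culture, 22.0, 19.8 and 31.2 CPM in p53-/- NPCs alone and 25.0, 28.8 and 38.9 CPM in p53-/- co-culture. Each group overlapped the next in the order of their means. p53 loss gave -0.14 (95% interval -0.57 to 0.28) alone and -0.12 (-0.54 to 0.30) in co-culture, so a decrease as large as that of Ercc5 alone lay outside both intervals. Co-culture gave 0.32 (-0.10 to 0.74) in p53+/+ and 0.35 (-0.08 to 0.77) in p53-/- NPCs. The latter was called only without p53-/- alone library 1_10 (0.55, adjusted p = 0.0440). The annotation places the pseudogene Gm3362 on the same strand and the antisense gene Gm49085 on the other strand of Rrm2b, overlapping it. Neither is among the 24108 genes listed with counts, and their reads may not be fully separated from those of Rrm2b.

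The other subunits of ribonucleotide reductase changed with co-culture. Rrm2, the S-phase small subunit of ribonucleotide reductase, averaged 388 ± 68.0 CPM in p53+/+ NPCs alone and 142 ± 37.8 CPM in co-culture, and 387 ± 54.5 and 211 ± 65.3 CPM in p53-/- NPCs. It was lower in co-culture by -1.45 ± 0.24 on the log2 scale (adjusted p = 0.000474) in p53+/+ and -0.87 ± 0.23 (adjusted p = 0.0117) in p53-/- NPCs. Rrm1, the large subunit that both small subunits join, was lower by -1.25 ± 0.20 and -0.69 ± 0.20. Per length of exon, Rrm2 was at 140.1 CPM per kb in p53+/+ NPCs alone, against 2.94 CPM per kb for Rrm2b. In co-culture Rrm1 also exceeded its p53+/+ level in p53-/- NPCs, by 0.70 ± 0.20 (adjusted p = 0.0453).

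**Figure D2:**
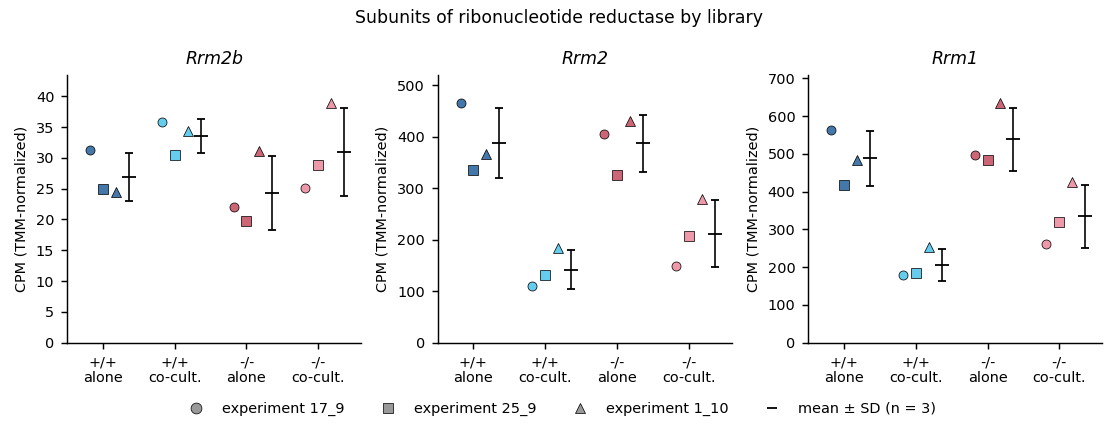
TMM-normalized CPM of Rrm2b, Rrm2 and Rrm1 (y axes, each from 0 on its own scale) in the 4 groups (x axis), with 1 symbol per library and the mean ± SD of 3 libraries. Rrm2 and Rrm1 were lower in co-culture in both genotypes, whereas the Rrm2b groups overlap.

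Gadd45a was at 10.6, 9.58 and 10.3 CPM in p53+/+ NPCs alone and at 12.3, 10.2 and 9.93 CPM in p53-/- NPCs alone. The p53+/+ co-culture gave 13.5, 12.2 and 11.7 CPM, and the p53-/- co-culture 26.7, 13.9 and 12.8 CPM. For Gadd45a, co-cultured p53-/- library 17_9 stood apart from the other two, which lay close to the p53+/+ co-culture. It also had the highest endothelial marker sum of its group, 198 CPM, while the p53+/+ co-culture libraries had sums of 264, 217 and 168 CPM. A link between these sums and Gadd45a was not tested. Libraries from co-culture were above those alone in both genotypes. The change passed in p53-/- NPCs, at 0.72 ± 0.24 (adjusted p = 0.0309) or 1.65-fold, and was 0.30 (95% interval -0.22 to 0.82) in p53+/+ NPCs. Without p53-/- co-culture library 17_9 the value in p53-/- NPCs was 0.30 (adjusted p = 0.203). The call was also lost without p53-/- alone library 25_9 (adjusted p = 0.0769) or 1_10 (0.0883), without experiment 17_9 (0.42, adjusted p = 0.0976) or 25_9 (0.111), and when only those 2 groups were fitted (0.0747). The same library had the highest Ddb2, and r between Ddb2 and Gadd45a was 0.854 across the 12 libraries, as a description. p53 loss gave 0.09 (-0.43 to 0.61) alone and 0.51 (0.0035 to 1.02; adjusted p = 0.195) in co-culture. The overlapping gene on the other strand, E230016M11Rik, had 21 to 47 counts per library.

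The paralogues of Gadd45a were not called in any comparison. Gadd45g was at 80.9 ± 8.22 CPM in p53+/+ and 57.2 ± 32.4 CPM in p53-/- NPCs alone (log2 fold change -0.50 ± 0.32). Gadd45b ranged from 1.53 to 11.1 CPM in p53+/+ and from 2.11 to 13.4 CPM in p53-/- NPCs alone. Gadd45g itself ranged from 31.6 to 93.6 CPM in the latter group.

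With co-culture, then, 1 member was called higher (Xpc) and 1 lower (Polh) in p53+/+ NPCs, and 3 higher (Xpc, Ddb2 and Gadd45a) and 0 lower in p53-/- NPCs. Calls were common in these comparisons: 21.2% of all tested genes passed as higher and 18.3% as lower with p53, and 18.8% and 17.0% without it. The groups did not overlap for 3 of 7 members in each, against 53.7% and 44.9% of all tested genes. The median over the 7 genes was 0.30 in p53+/+ and 0.35 in p53-/- NPCs, against 0.00 and -0.01 over all genes. An unadjusted p under 0.05 was reached by 2 members in p53+/+ and 4 in p53-/- NPCs, against 48.6% and 45.9% of all tested genes. Polh was the one of the 4 with a lower level. DESeq2 without a block called 0 members lower in p53-/- NPCs and still called Polh lower in p53+/+ NPCs. The endothelial markers moved with these groups, 20 of 20 being higher in p53+/+ and 19 of 20 in p53-/- co-culture, and so did summed oligodendrocyte markers, from 101 to 151 CPM alone to 311 to 345 CPM in p53+/+ co-culture and from 78.8 to 153 CPM to 236 to 322 CPM in p53-/- co-culture. Of 8 tested mural and fibroblast markers, 3 were higher and 2 lower in p53+/+ and 2 higher and 3 lower in p53-/- co-culture. Of 12 neural progenitor markers, 2 were higher and 3 lower, and 1 higher and 3 lower. The 1 tested microglia marker, P2ry12, was higher in both. Of 7 tested neuroblast and neuron markers, 1 was higher and 1 lower in p53+/+ and 0 were called in p53-/- co-culture. The part of all these markers in the changes of Xpc, Ddb2, Gadd45a and Polh was not tested. In these bulk libraries, fewer cells of a type and less RNA per cell cannot be told apart.

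**Figure D3:**
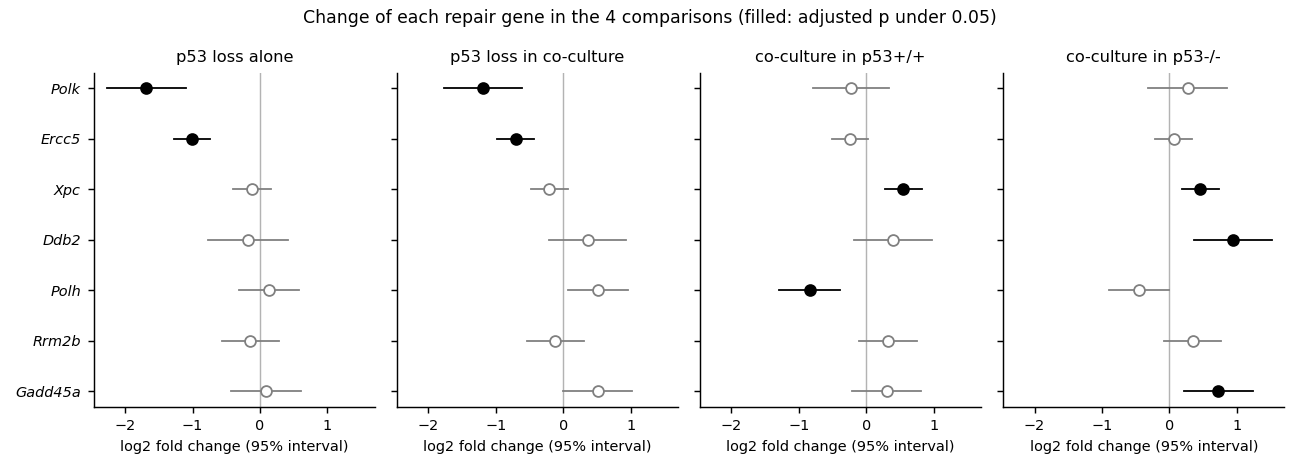
Log2 fold change (x axis) with its 95% interval for the 7 genes (y axis) in the 4 comparisons, filled where the adjusted p was under 0.05. Polk and Ercc5 lie left of 0 in both comparisons of p53 loss, and Xpc lies right of 0 in both comparisons of co-culture.

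The effect of co-culture was not shown to differ between genotypes for any member. The interaction was called for 0 of 7 genes by edgeR and by DESeq2, with and without the block, and 0 had an unadjusted p under 0.05. Over all tested genes edgeR called 0.0364%, or 5 genes, and 976, or 7.10%, had an unadjusted p under 0.05. For Polk the difference was 0.50 (95% interval -0.32 to 1.31), for Ercc5 0.30 (-0.07 to 0.68), for Polh 0.38 (-0.25 to 1.01) and for Gadd45a 0.42 (-0.30 to 1.15). These intervals are wide enough to hold both no difference and one of over 1.5-fold.

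Known p53 targets that act outside repair give a scale for these values. Of 20 such genes, which include cell-cycle inhibitors and death genes, 16 were lower and 0 higher in p53-/- NPCs alone, with a median log2 fold change of -1.83, against -0.14 for the 7 repair genes and 0.05 for all tested genes. In co-culture 15 of the 20 were lower, with a median of -1.64, against -0.12 for the 7 and 0.02 for all genes. The lowest were Cdkn1a alone and Eda2r, a receptor gene, in co-culture, at -4.67 ± 0.65 (adjusted p = 0.00138). The difference between the 2 lists was not tested.

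The other genes of the members' own pathways held calls of higher and none of lower expression with p53 loss, beside the 2.02% of all tested genes called higher alone and 3.24% in co-culture. Of 27 other genes of nucleotide excision repair, 2 were higher and 0 lower alone, with Gtf2h2, a subunit of the TFIIH helicase complex, at 0.50 ± 0.13 (adjusted p = 0.0423). In co-culture 1 of them was higher, Gtf2h1 of the same complex, at 0.42 ± 0.11 (adjusted p = 0.0277). Ddb1, the partner of Ddb2, was at 0.01 ± 0.09 alone, and Ercc4, the nuclease that cuts on the side opposite to Ercc5, was at -0.17 ± 0.13. Among 15 other genes of translesion synthesis, 0 were called alone and 2 were higher in co-culture, led by the polymerase gene Polq at 1.04 ± 0.26 (adjusted p = 0.0292). Poli and Rev3l, paralogues or partners of the 2 polymerases, were at -0.02 ± 0.17 and -0.28 ± 0.26 alone. The 15 other genes of deoxynucleotide supply had 0 calls alone and 2 higher in co-culture. Of 9 tested relatives and partners of Gadd45a, 1 was higher alone, Ing1 at 0.42 ± 0.11 (adjusted p = 0.0433), and 4 in co-culture, led by Ccnb1, the cyclin of Cdk1, at 1.21 ± 0.21 (adjusted p = 0.00490).

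With co-culture, each of these lists held partners that were lower. Among all tested genes 18.3% were called lower and 21.2% higher in p53+/+ NPCs, and 17.0% and 18.8% in p53-/- NPCs. In nucleotide excision repair 9 of the 27 were lower and 0 higher in p53+/+ NPCs, and 11 lower and 1 higher in p53-/- NPCs. Rpa2, a subunit of the protein that coats single-stranded DNA in repair and replication, was the lowest in both, at -1.02 ± 0.12 and -0.89 ± 0.12. The higher one was Uvssa, a factor of repair coupled to transcription, at 0.59 ± 0.17 (adjusted p = 0.0166). Xpc stood against this direction, while its stabilising partner Rad23b was lower, at -0.59 ± 0.16 and -0.64 ± 0.16, as was Ddb1, at -0.35 ± 0.09 and -0.32 ± 0.09. Xpa, Ercc1 and Ercc4 were not called in either.

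Translesion synthesis held calls in both directions, and the same shares of all tested genes stand beside its counts and those of the next lists. Of its 15 other genes, 5 were lower and 2 higher in p53+/+ and 4 lower and 1 higher in p53-/- NPCs. Usp1, which removes ubiquitin from PCNA, was lowest at -1.44 ± 0.25 and -0.95 ± 0.25, and the polymerase gene Poln highest at 1.36 ± 0.28 and 1.05 ± 0.28. Rev1, the scaffold to which polymerases eta and kappa bind, was lower at -0.47 ± 0.14 (adjusted p = 0.0149) and -0.37 ± 0.14 (adjusted p = 0.0487). In deoxynucleotide supply, 11 of 15 were lower and 1 higher in each genotype, with thymidine kinase Tk1 lowest at -1.59 ± 0.19 and -1.27 ± 0.19. Of the 9 relatives and partners of Gadd45a, 5 and 6 were lower and 0 higher, with Cdk1, the mitotic kinase, at -1.68 ± 0.21 and -1.09 ± 0.20.

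**Figure D4:**
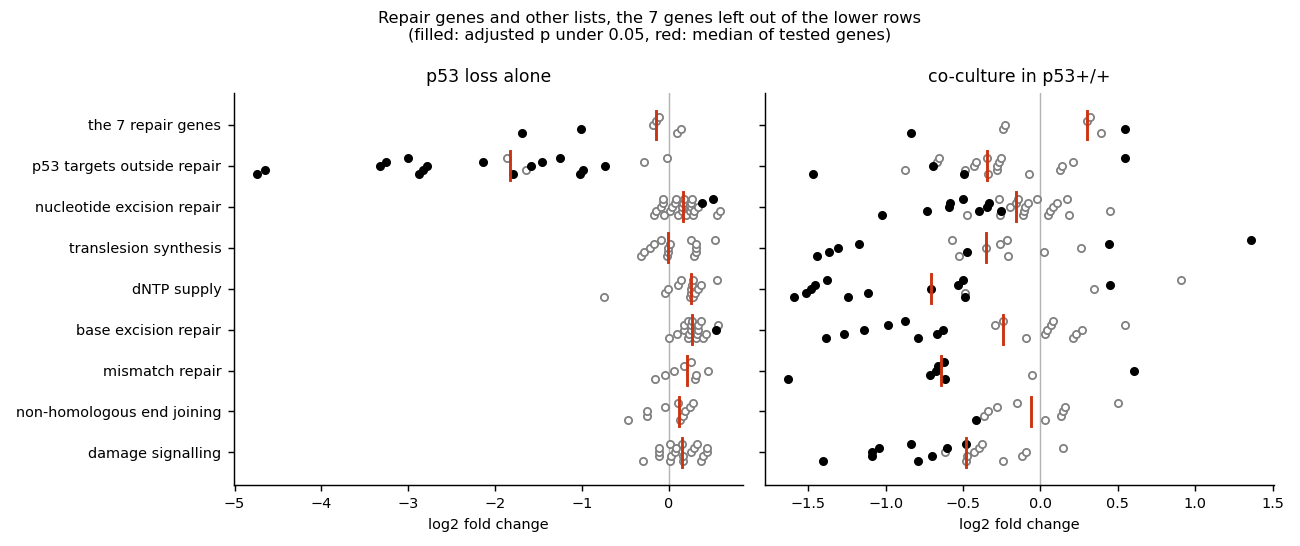
Log2 fold change (x axis) of the tested genes of each list (y axis, the 7 genes left out of all lists but their own) with p53 loss in NPCs alone and with co-culture in p53+/+ NPCs, filled where the adjusted p was under 0.05, with the median as a red line. With p53 loss the list of p53 targets outside repair lies at a median of -1.83, and with co-culture the deoxynucleotide genes lie at a median of -0.71.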

How the data were processed

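The authors prepared stranded mRNA libraries, used TopHat2 2.0.11 to place read pairs on mm9 and HTSeq 0.6.1 to assign them to genes, and the deposited values are these raw counts. No source used here gives the strand setting or annotation version. Columns were matched to groups and experiments by the names that they carry.

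Here edgeR 4.0.16 (R 4.3.3) kept 13745 of 18810 genes with a count (filterByExpr). Counts were scaled by TMM factors, and the 12 libraries entered 1 quasi-likelihood fit whose coefficients were the group means. P-values were adjusted by Benjamini-Hochberg over all tested genes of a comparison, at a threshold of 0.05. SE is the log2 fold change over the square root of F. CPM carry the TMM factors and, per kb, the union exon length of GENCODE M21. The fit was tested on simulated data that held no effect of the experiment number, so that test does not cover the pairing. Total counts of 16509710 to 22245224 limit the precision of low genes. Other scalings, filters, DESeq2 1.42.0, pairwise fits, a replicate block and left-out libraries were tried as alternatives. The fits with left-out libraries had no block.

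The experiment numbers pair the libraries, as the key of the authors' count table says. Deviations from group means correlated in all 18 same-number pairs (r from 0.128 to 0.618, against -0.608 to 0.241 in 36 others). Deviations cancel within a group, so the ranges of same-number and other pairs are not independent of each other. The counts of the 12 pairs of libraries within a group differed by 13.3 to 62.6 times the counting variance, so none is a copy. The genes, lists and tests were chosen with earlier results of these data known. Named are the 7 genes, 13 set partners (1 of which is not reported here), Trp53 and Cdkn1a, the called gene with the largest rise and fall of a list where described, and up to 3 genes most alike to each of the 7. Overlapping genes were named after their values were seen.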

Additional observations from a re-analysis of the deposited data

How the results depend on the processing

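Over 24 alternatives (23 for the interaction), of which 15 leave out a library or an experiment, 786 of 833 log2 fold changes of the 7 genes kept their direction and side of the threshold, 25 lost a call, 7 gained one and 15 changed sign. No called value changed sign. A stricter threshold, an adjusted p under 0.01, is not in this tally: it removed the calls of Polk for p53 loss in co-culture and of Xpc, Ddb2 and Gadd45a for co-culture in p53-/- NPCs. Ddb2 had the fewest counts, which limits its precision. In p53-/- co-culture the count of members called higher was 3, and was 1 when only the groups compared were fitted and 0 at an adjusted p under 0.01. In p53 loss in co-culture the count called lower was 1 at that threshold. With the experiment number as a replicate block, 1 member, Polh, was called higher with p53 loss in co-culture and 1 lower with co-culture in p53-/- NPCs, by edgeR and by DESeq2, and the block changed no other call of a member.

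When libraries or experiments were left out, the count of members called lower was 1 to 2 for p53 loss alone, 0 to 2 for p53 loss in co-culture, 0 to 1 for co-culture in p53+/+ and 0 to 1 in p53-/- NPCs, and the count called higher was 0 to 1 and 0 to 3 in the respective co-cultures. The values that changed sign in these fits, none of them called, were those of p53 loss alone for Ddb2 (-0.34 to 0.034), Gadd45a (-0.0080 to 0.12), Polh (-0.071 to 0.30) and Rrm2b (-0.46 to 0.031), of p53 loss in co-culture for Rrm2b (-0.31 to 0.049), of co-culture in p53-/- NPCs for Ercc5 (-0.012 to 0.12), and of the interaction for Rrm2b (-0.13 to 0.27) and Xpc (-0.15 to 0.024). The cause was not tested.

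Among all genes, p53 loss alone gave 277 higher and 587 lower, against 996 and 1282 with the block, 516 and 954 with DESeq2, 1091 and 1472 with both, 36 and 253 at the stricter threshold, 43 and 306 when only the groups compared were fitted. p53 loss in co-culture gave 445 and 677, against 1373 and 1499 with the block, 760 with DESeq2 for those higher, 1435 and 1593 with both and 91 and 239 at the stricter threshold. The interaction gave 0 and 5, against 3 and 8, 9 and 16, 205 and 70, and 0 and 1 in that order, and 1 lower with upper-quartile scaling. Co-culture gave 2908 and 2522 in p53+/+ and 2586 and 2341 in p53-/- NPCs, against 1911 and 1376, and 1597 and 1116, at the stricter threshold.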

Other observations

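Repair pathways without a member among the 7 genes also held genes that were lower in co-culture, in numbers that differed between pathways. In base excision repair, 8 of 19 tested genes were lower and 0 higher in p53+/+ NPCs, led by the glycosylase gene Neil3 at -1.39 ± 0.36 on the log2 scale, and 7 were lower and 0 higher in p53-/- NPCs, led by the uracil glycosylase gene Ung at -1.01 ± 0.21. In mismatch repair 6 of 8 were lower and 1 higher in p53+/+ NPCs, and 5 lower and 0 higher in p53-/- NPCs, with the exonuclease gene Exo1 lowest in both, at -1.63 ± 0.24 and -1.05 ± 0.23. Mlh3, a MutL homologue, was the higher one, at 0.61 ± 0.21 (adjusted p = 0.0378). Among 19 tested genes of damage signalling 9 and 8 were lower and 0 higher, with the checkpoint kinase gene Chek1 lowest at -1.41 ± 0.28 and -0.92 ± 0.27. In non-homologous end joining 1 of 10 was lower and 0 higher in each genotype, with list medians of -0.064 and -0.074, and that gene was Xrcc6, which encodes Ku70, at -0.42 ± 0.14 and -0.56 ± 0.14. These counts stand against 18.3% and 17.0% of all tested genes called lower.

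With p53 loss every call in the same lists was of higher expression. For scale, 2.02% of the whole tested set passed as higher when NPCs without p53 grew on laminin, and 3.24% when they grew on bmvECs. The shares that passed as lower were 4.27% and 4.93%, in that order. The lists were not tested against these shares. Alone, the endonuclease gene Apex1 was higher at 0.55 ± 0.14 (adjusted p = 0.0317), and in mismatch repair, end joining and damage signalling 0 genes were called. In co-culture Fen1, Exo1 and Mdc1 were higher, at 0.62 ± 0.16, 0.89 ± 0.23 and 0.63 ± 0.18, and 0 genes of these lists were lower.

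The other members were most like genes from outside the repair lists. Over the 12 libraries Xpc was most like Cln3 (r = 0.991), Ddb2 like Gpr124 (r = 0.948), Polh like Iws1 (r = 0.985), Rrm2b like Rnf170 (r = 0.966) and Gadd45a like Cdk19 (r = 0.934). These are descriptions over libraries that share groups and experiments.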
